A study of Rattus norvegicus with 18 samples.

Results

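The interleukin-1 family ligands and receptors examined here were 9 genes, Il1a, Il1b, Il1rn, Il1r1, Il1r2, Il1rap, Il18, Il33 and Il18bp, measured in the knee synovial tissue of rats with adjuvant-induced arthritis (AIA). All gene probes that the array names by one of these symbols were taken, 14 of the 41012 gene probes. Of the 9 genes, 8 had a probe that some group showed well above background on each of its 3 arrays, and these were tested among 23606 genes or transcripts. Il1a did not and was not tested. The 18 single-colour arrays were of male Lewis rats, an inbred strain prone to adjuvant arthritis, aged 6 to 8 weeks and weighing 200 ± 20 g, with 3 arrays in each of 6 groups. Control rats were normal animals. AIA rats had the arthritis alone, AIA-cold and AIA-hot rats had it in a cold or a hot model, and AIA-cold-WTD and AIA-hot-WTD rats were the same models given WTD, a Chinese herbal formula. The study asks how the cold and hot forms differ and what WTD does in each. How the cold and hot models were made, how WTD was given, and what the letters G, Z and D in the titles of the WTD arrays stand for are not given in the sources used here, nor is it said how many animals an array holds. In AIA-cold-WTD replicate 1 has the letter G and the other 2 arrays have Z, and in AIA-hot-WTD the arrays have D, G and Z. A WTD group may therefore mix conditions, and its mean and spread are those of 3 arrays that may not be replicates of 1 treatment.

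Interleukin-1 alpha and beta are ligands of 1 receptor, Il1r1, which signals once it has joined with the accessory protein Il1rap. The antagonist Il1rn occupies that receptor without signalling, and the decoy receptor Il1r2 binds the ligands without passing a signal on. Interleukin-18 is a related ligand that Il18bp, a secreted protein, neutralises, and interleukin-33 is a nuclear cytokine of stromal and endothelial cells that acts when released. In inflamed joints the family is known for driving synovial fibroblasts and cartilage cells to make enzymes and chemokines.

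The sequences below belong to the genes whose values the results turn on. Among the tested members Il1b and Il1rn gave the largest differences from control, so the 250 bases upstream of their starts are shown from RefSeq, in assembly GRCr8, with TATAAA on either strand in capitals. These lie at chr3:137036582-137036831 on the minus strand for Il1b and at chr3:27520072-27520321 on the plus strand for Il1rn.
Il1b upstream: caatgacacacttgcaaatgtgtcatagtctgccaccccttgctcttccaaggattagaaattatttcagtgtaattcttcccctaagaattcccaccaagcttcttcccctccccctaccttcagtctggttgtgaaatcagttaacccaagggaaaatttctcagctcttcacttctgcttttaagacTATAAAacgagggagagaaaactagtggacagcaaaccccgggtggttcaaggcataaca
Il1rn upstream: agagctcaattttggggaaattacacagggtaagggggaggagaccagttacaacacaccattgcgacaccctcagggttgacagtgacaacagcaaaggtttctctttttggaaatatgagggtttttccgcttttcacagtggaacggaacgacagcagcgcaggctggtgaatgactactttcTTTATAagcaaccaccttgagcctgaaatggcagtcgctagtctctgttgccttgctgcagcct
Promoters of 8 of the 9 genes were matched by symbol. In this window TATAAA was found in Il1b from base -60, in Il1rn on the opposite strand from base -64, and in Il1a from base -32 and, on the opposite strand, from base -237, and it occurs in 12.9% of 33469 promoters of the same length. The AP-1 motif TGANTCA (6.34% of promoters) was found only in Il1a among these genes, from base -12, and the NF-kappaB consensus (4.24%) only in Il1rap. The C/EBP motif TTNNGCAA (9.22%) was found in none of the 8. All motifs were searched on both strands. The AP-1 motif of Il1a matched on both strands at the same bases, and no other matches found in these promoters overlapped.

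The other sequences are 60-base array probes at rn4 positions given in the files. The Il1a probe, at chr3:116914826-116914885 on the minus strand, is the only one for that gene, so its low signal rests on these bases. The second Il1rn probe is shown because it was too dim on most arrays to check the first; it covers chr3:2609497-2610531 on the plus strand, its 60 bases spread over a span of 1035. The Il33 probe, at chr1:233684152-233684211 on the plus strand, is shown because it differed between AIA-cold and control while the brighter Il33 probe did not pass the test. No base is in capitals.
Il1a probe: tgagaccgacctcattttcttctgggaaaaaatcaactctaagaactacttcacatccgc
Il1rn second probe: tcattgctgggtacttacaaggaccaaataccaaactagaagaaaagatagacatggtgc
Il33 dimmer probe: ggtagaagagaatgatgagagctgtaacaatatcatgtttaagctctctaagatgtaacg
In rn4 both Il1b probes lie on the same strand of chromosome 3 as the Il1a probe, one of them at chr3:116964465-116964524. Probes of Il1r2 and Il1r1 likewise neighbour each other on chromosome 9, the former at chr9:39316654-39319494 and the brighter one of the latter at chr9:39462421-39464677.

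Values are log2 intensities relative to the 75th percentile of each array, so 0 is the level of that percentile and 1 unit is a doubling. That percentile was 68.9 intensity units on control replicate 1 and between 201 and 331 on the other 17 arrays, and on the former 43.3% of probes were well above background, against 56.4% to 76.5% elsewhere. The mean of 9 measured cartilage genes was 4.75 on control replicate 1 and between -1.90 and 1.36 on the other arrays, and the mean of 12 measured monocyte and macrophage genes was 1.87 there against 3.08 to 3.79. Member differences from control are therefore given with and without that array in many cases, though not in all. Synovial fibroblast and lining genes were measured as labelled: 12 of 13 passed that criterion on all 18 arrays. The arrays fill 5 slides, and AIA-cold shares a slide only with AIA-cold-WTD, so that slide and group cannot be told apart where AIA-cold is set against any other group. The same holds for AIA-cold-WTD, which lies on 2 slides without control, AIA or AIA-hot arrays. AIA-hot and AIA-hot-WTD also share no slide with control, so their differences from control have no comparison within a slide. They are tied to control only through the AIA array on the control slide.

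Il1a, the membrane-bound and intracellular agonist, was well above background on 1 of 18 arrays. That array was AIA-hot replicate 2, at -2.51. On the other AIA-hot arrays the signal was -3.83 and -5.95, not well above background. Control replicate 1 read -2.52, but on that array no probe under -1.86 was well above background. No level of Il1a was therefore obtained in any group.

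Il1b, the main secreted agonist, was lowest in control and highest in AIA-hot. The control arrays read -2.01, -1.25 and -1.66, the first of them not well above background. AIA arrays read -0.75, -0.82 and -1.04. All 3 AIA arrays thus lay above all 3 control arrays. The AIA-cold arrays read -0.46, -0.43 and -0.52 and the AIA-hot arrays 0.78, 0.27 and 0.35. These 2 models overlapped neither each other nor AIA nor control. With WTD the arrays read 0.65, -0.54 and -0.31 in the cold model and 0.40, -0.80 and -0.28 in the hot model. Both WTD groups spread widely and overlapped the models they belong to.

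The group means of Il1b, as mean ± SD over 3 arrays, were 0.47 ± 0.28 in AIA-hot, -0.07 ± 0.63 in AIA-cold-WTD, -0.23 ± 0.60 in AIA-hot-WTD, -0.47 ± 0.05 in AIA-cold, -0.87 ± 0.15 in AIA and -1.64 ± 0.38 in control. Down this order, the first 3 steps were smaller than the larger SD of the 2 neighbours. The steps from AIA-cold to AIA and from AIA to control, 0.40 and 0.77, were larger than it.

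**Figure D1:**
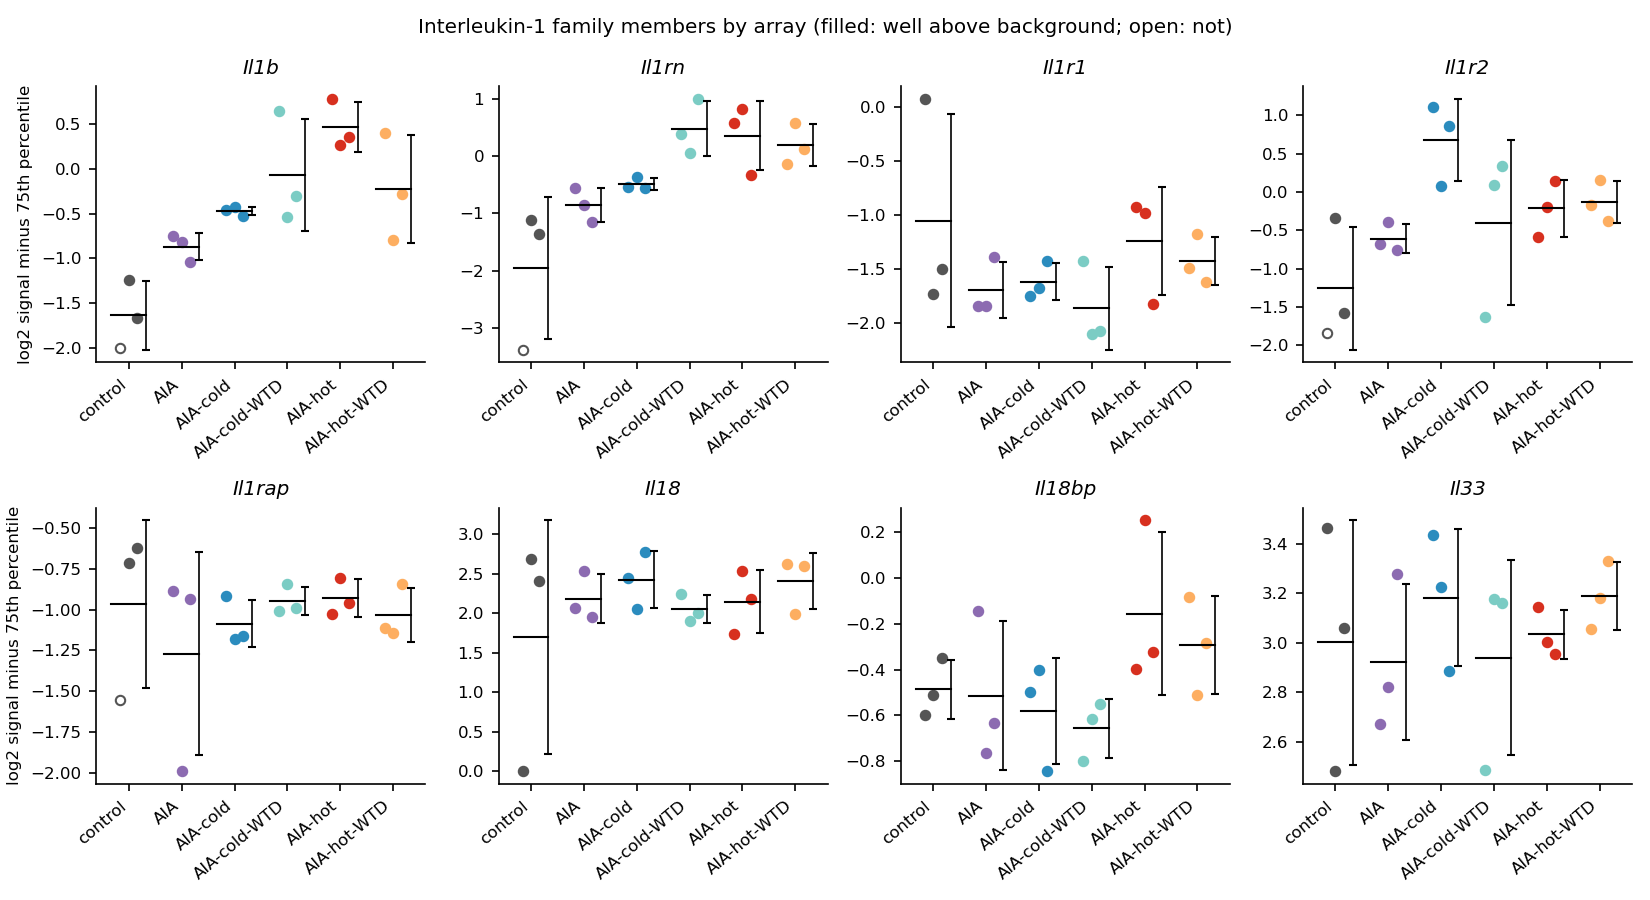
Log2 signal relative to the array's 75th percentile (y axis) for the 8 tested genes by group (x axis), with 1 point per array, open where the probe was not well above background, a line at the mean and a bar of 1 SD. Il1b and Il1rn are lowest in control, Il1r2 is highest in AIA-cold (0.68 ± 0.54), and control replicate 1 gives the lowest Il18 value (0.00) and the highest Il1r1 value (0.08).

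The rise of Il1b in AIA-hot was the 1 call among the 8 tested members: Il1b was 4.31-fold higher in AIA-hot than in control (2.11 ± 0.32 log2, SE, adjusted p = 0.0343 by limma, 3 of 3 arrays above all controls). Over all genes 0.0551% were called in that comparison, 13 in number, of which 3 were higher (8 of 22 with quantile scaling). The second Il1b probe gave 2.02 ± 0.31 (adjusted p = 0.0343, when it stood for the gene) and followed the first over the 18 arrays with r = 0.990. With slide as a random block the difference was 2.13 (adjusted p = 0.118), with slide as a fixed block 2.34 (adjusted p = 0.272) and with normexp background correction 1.26 (adjusted p = 0.0813).

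Leaving out single arrays also moved that adjusted p across the threshold. It was 0.0918 without control replicate 1 (difference 1.92), 0.0545 without control replicate 3, 0.103 without AIA-hot replicate 1 and 0.157 without AIA-hot replicate 2. It lay between 0.0503 and 0.0650 without AIA replicate 2 or 3, any of the 3 AIA-cold arrays, or AIA-cold-WTD replicate 2 or 3, which change only the shared estimate of the spread. In all, 7 of the 18 fits with an array left out kept the call, and the difference stayed between 1.92 and 2.30.

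In the other comparisons Il1b did not pass the test. Against control it differed by 0.77 ± 0.32 in AIA (adjusted p = 0.756), by 1.17 ± 0.32 in AIA-cold (0.0896), by 1.57 ± 0.32 in AIA-cold-WTD (0.0754) and by 1.41 ± 0.32 in AIA-hot-WTD (0.0818). Without control replicate 1 these were 0.59, 0.99, 1.39 and 1.23. AIA-hot exceeded AIA by 1.34 ± 0.32, with a 95% interval of 0.66 to 2.02 and an adjusted p of 0.839, and on the slide that holds 2 arrays of each the difference was 1.46. AIA-cold minus AIA-hot was -0.94 ± 0.32 (adjusted p = 0.726). The mean with WTD differed from that without by 0.40 ± 0.32 in the cold model (adjusted p = 0.991) and by -0.70 ± 0.32 in the hot model (adjusted p = 0.999). The difference of these effects, 1.10 ± 0.45, had an adjusted p of 0.988. Without AIA-cold-WTD replicate 1 the cold effect was 0.05, and without AIA-hot-WTD replicate 2 the hot effect was -0.41. Within a slide, where 1 array stands on 1 side, these effects were 1.11, which rests on AIA-cold-WTD replicate 1, and -0.58. That array stood apart in other genes too: its mean over 10 adipocyte genes was 1.87, against 4.69 and 4.86 on the other arrays of its group.

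Il1rn, the receptor antagonist, was also lowest in control on its brighter probe. Control arrays read -3.37, -1.12 and -1.37, the first not well above background, and AIA arrays -0.56, -0.85 and -1.16. AIA overlapped control through its lowest array. The AIA-cold arrays read -0.54, -0.36 and -0.55, the AIA-hot arrays 0.57, 0.82 and -0.32. The highest values of this gene were in the WTD groups and AIA-hot, at 0.38, 0.05 and 1.00 in AIA-cold-WTD and -0.13, 0.58 and 0.12 in AIA-hot-WTD. Each AIA-cold-WTD array was above each AIA-cold array.

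By mean, Il1rn ran from AIA-cold-WTD (0.48 ± 0.48, SD, n = 3) through AIA-hot (0.36 ± 0.60), AIA-hot-WTD (0.19 ± 0.36), AIA-cold (-0.48 ± 0.11) and AIA (-0.85 ± 0.30) to control (-1.95 ± 1.24). The gap between AIA-hot-WTD and AIA-cold, 0.67, and that between AIA-cold and AIA, 0.37, exceeded the larger SD of the neighbours, and the other gaps did not. Relative to control the log2 difference was 1.10 ± 0.48 in AIA, 1.47 ± 0.48 in AIA-cold, 2.31 ± 0.48 in AIA-hot, 2.43 ± 0.48 in AIA-cold-WTD and 2.14 ± 0.48 in AIA-hot-WTD. None passed the test, with adjusted p of 0.756, 0.129, 0.0894, 0.0752 and 0.0818 in that order.

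Without control replicate 1 these differences were smaller, at 0.39, 0.76, 1.60, 1.72 and 1.43 in the same order, with adjusted p from 0.0852 upward. Without control replicate 2 they were called in AIA-hot (2.73, adjusted p = 0.0446) and in AIA-cold-WTD (2.85, adjusted p = 0.0479). The WTD effect on Il1rn was 0.96 ± 0.48 in the cold model (95% interval -0.06 to 1.98, adjusted p = 0.866) and -0.17 ± 0.48 in the hot model (adjusted p = 0.999). AIA-cold-WTD replicate 1 differed by 0.86 from the 3 AIA-cold arrays of its slide.

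The second Il1rn probe, printed above, was well above background on 5 of 18 arrays, none of them in control, AIA or AIA-cold, and did not pass the filter. It therefore gives no difference from control. Its readings, mostly not well above background, did not follow the brighter probe over the 18 arrays (r = -0.287). The values of Il1rn rest on the brighter probe, at chr3:2613130-2613189 in rn4.

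Il1r2, the decoy receptor, was highest in the cold model. The AIA-cold arrays read 1.11, 0.08 and 0.86. Control arrays read -1.84, -0.34 and -1.58, the first not well above background, and AIA arrays -0.68, -0.39 and -0.75. Every AIA-cold array was thus above every control and AIA array. AIA-hot arrays read -0.59, -0.19 and 0.15, AIA-hot-WTD arrays -0.17, 0.16 and -0.38, and AIA-cold-WTD arrays -1.63, 0.10 and 0.34. AIA-cold overlapped these 3 groups, in each case through its array at 0.08.

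The Il1r2 difference of AIA-cold from control was 1.94 ± 0.47 (3.83-fold, adjusted p = 0.0690) and that from AIA 1.29 ± 0.47 (2.44-fold, adjusted p = 0.434). Neither passed the test. Without control replicate 1 the former was 1.65 (adjusted p = 0.167); without control replicate 2 it was 2.39 (adjusted p = 0.0396), and without AIA-cold-WTD replicate 1 it was 1.94 (adjusted p = 0.0257). The difference with WTD in the cold model was -1.08 ± 0.47 (95% interval -2.09 to -0.07, adjusted p = 0.787), and -0.46 without AIA-cold-WTD replicate 1. On the slide that holds AIA-cold-WTD replicate 1, the array at -1.63, with the 3 AIA-cold arrays it was -2.31. In the hot model it was 0.08 ± 0.47. Il1r2 in AIA-cold minus AIA-hot was 0.89 ± 0.47 (adjusted p = 0.932 by limma). AIA-hot and AIA-hot-WTD were also above control, by 1.04 and 1.12 (adjusted p = 0.399 and 0.313), and by 0.75 and 0.83 without control replicate 1. None of these was called. From the highest mean, AIA-cold at 0.68 ± 0.54, to the next, AIA-hot-WTD at -0.13 ± 0.27, the step was 0.81, larger than the larger SD; the 4 steps further down, to AIA-hot (-0.21 ± 0.37), AIA-cold-WTD (-0.40 ± 1.08), AIA (-0.61 ± 0.19) and control (-1.25 ± 0.80), were smaller than it.

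Il1r1, the signalling receptor, differed little between groups apart from 1 array. Control arrays read 0.08, -1.74 and -1.50, and all other arrays lay between -2.10 and -0.93. Its group means were -1.05 ± 0.99 in control, -1.24 ± 0.50 in AIA-hot, -1.43 ± 0.23 in AIA-hot-WTD, -1.62 ± 0.17 in AIA-cold, -1.69 ± 0.26 in AIA and -1.87 ± 0.38 in AIA-cold-WTD, with no step beyond the spread. AIA minus control was -0.64 ± 0.39 (adjusted p = 0.756) and became -0.07 without control replicate 1. The dimmer Il1r1 probe gave -0.61 and followed the brighter at r = 0.906.

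Il1rap, the accessory protein, also differed little between groups when all arrays were kept. All 18 arrays lay between -1.99 and -0.63, and group means between -1.27 ± 0.62 in AIA and -0.93 ± 0.11 in AIA-hot. AIA-cold-WTD, control, AIA-hot-WTD and AIA-cold stood between them at -0.95, -0.97, -1.03 and -1.09. No step of that order was beyond the spread. The AIA-hot minus control difference was 0.04 ± 0.27, with a 95% interval of -0.55 to 0.62, and -0.26 without control replicate 1. AIA and AIA-cold differed from control by -0.30 and -0.12, and by -0.60 and -0.42 without that array, none called.

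Il18, a ligand that caspase-1 also matures, lay between 1.73 and 2.77 on 17 arrays and at 0.00 on control replicate 1. Its group means were 2.42 ± 0.36 in AIA-cold, 2.41 ± 0.36 in AIA-hot-WTD, 2.18 ± 0.31 in AIA, 2.15 ± 0.40 in AIA-hot, 2.05 ± 0.18 in AIA-cold-WTD and 1.70 ± 1.48 in control, with no step beyond the spread. AIA-cold minus control was 0.72 ± 0.51 and turned to -0.13 without control replicate 1 (adjusted p = 0.462 and 0.885). The dimmer Il18 probe gave 0.04 for it. The AIA and AIA-hot differences from control, 0.48 and 0.45, likewise turned to -0.37 and -0.40 without that array. Those of AIA-cold-WTD and AIA-hot-WTD, 0.35 and 0.71, turned to -0.50 and -0.14.

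Il18bp, the inhibitor of interleukin-18, ranged from -0.84 to 0.25. Means were -0.16 ± 0.36 in AIA-hot, -0.29 ± 0.21 in AIA-hot-WTD, -0.49 ± 0.13 in control, -0.51 ± 0.33 in AIA, -0.58 ± 0.23 in AIA-cold and -0.66 ± 0.13 in AIA-cold-WTD, and no step was beyond the spread. All 3 AIA-cold arrays lay below the lowest AIA-hot array, both nearest arrays reading -0.40, and the means differed by -0.43 ± 0.20 (adjusted p = 0.918).

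Il33 was measured by 2 probes that gave different values. On the brighter probe, at chr1:233685259-233685318 in rn4, the arrays lay between 2.48 and 3.46 and group means between 2.92 ± 0.32 in AIA and 3.19 ± 0.14 in AIA-hot-WTD, with AIA-cold at 3.18, AIA-hot at 3.03, control at 3.00 and AIA-cold-WTD at 2.94, no step being beyond the spread. AIA-cold minus control was 0.18 ± 0.25 (95% interval -0.36 to 0.72), and 0.41 without control replicate 1. On the dimmer probe the control arrays read 0.46, -0.09 and 0.24 and the AIA-cold arrays 1.16, 1.05 and 0.85, with no overlap. That difference was 0.82 ± 0.15 with an adjusted p of 0.0382 by limma when the probe stood for the gene.

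Against control the dimmer probe also differed by 0.37 in AIA and 0.44 in AIA-hot, where the brighter gave -0.08 and 0.03, none of them called. It read 0.26, 0.32 and 0.08 in AIA-cold-WTD, below all 3 AIA-cold arrays, a difference of -0.80 ± 0.15 with an adjusted p of 0.321, against -0.24 on the brighter probe. With slide as a random block its AIA-cold minus control difference was 0.78 (adjusted p = 0.207), and 9 of the 18 fits with an array left out kept its call, with the difference between 0.67 and 0.95. Without control replicate 1 it was 0.95 (adjusted p = 0.0338). The call was lost on leaving out either of the AIA-cold arrays numbered 1 and 2 (adjusted p = 0.182 and 0.133) or control replicate 2 or 3 (0.0538 and 0.0540). It was also lost, at an adjusted p between 0.0504 and 0.0533, without AIA-cold-WTD replicate 2 or 3, AIA-hot replicate 1 or 2, or AIA-hot-WTD replicate 3. Over the 18 arrays the probes correlated at r = 0.520.

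**Figure D2:**
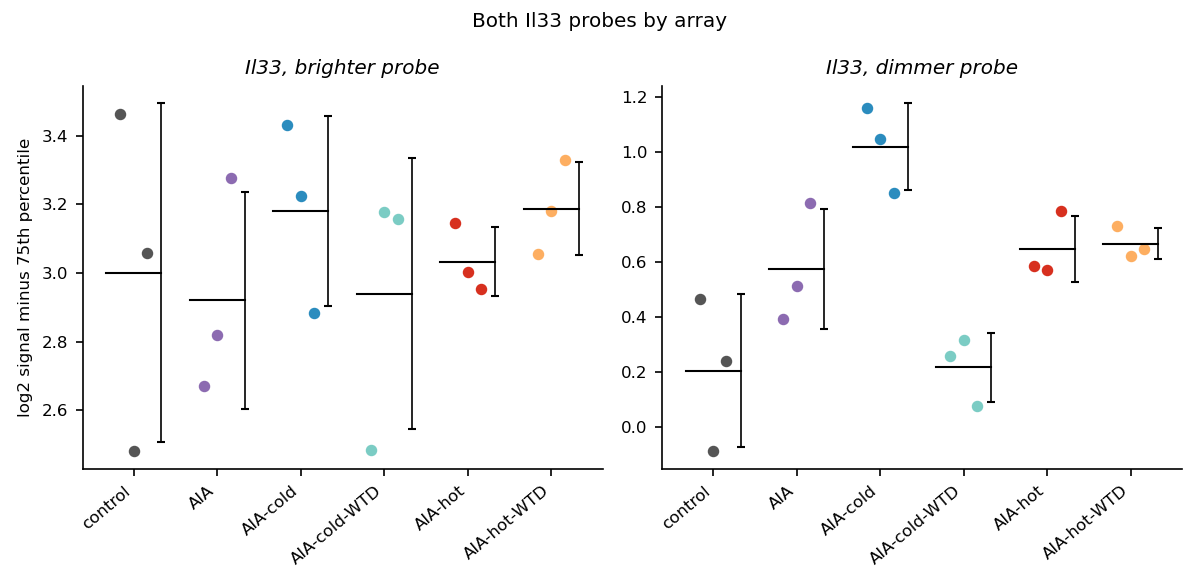
Log2 signal relative to the 75th percentile (y axis) on the brighter and the dimmer Il33 probe by group (x axis), with 1 point per array, a line at the mean and a bar of 1 SD. On the dimmer probe AIA-cold (0.85 to 1.16) stands above control (-0.09 to 0.46) and AIA-cold-WTD (0.08 to 0.32), while on the brighter probe the groups overlap.

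Against control, few members were called in any model. In AIA, 0 of 8 were called by limma and 2 had an unadjusted p under 0.05, while 0% of all genes were called. Only Il1b of the 8 did not overlap there, against 10.66% of all genes. In AIA-cold, 0 of 8 were called, 3 had an unadjusted p under 0.05, and 0.534% of all genes were called. Arrays did not overlap for 3 members, Il1b, Il1rn and Il1r2, against 24.9% of all genes. In AIA-hot 1 of 8 was called, Il1b as above, and Il1b and Il1rn did not overlap, against 13.1% of all genes. The median log2 difference of the 8 was 0.45 in AIA-cold and 0.39 in AIA-hot, beside all-gene medians of -0.04 and -0.05. With control replicate 1 left out these medians were 0.21 and 0.32, and 4 and 3 of the 8 did not overlap, against 44.8% and 29.9% of all genes.

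**Figure D3:**
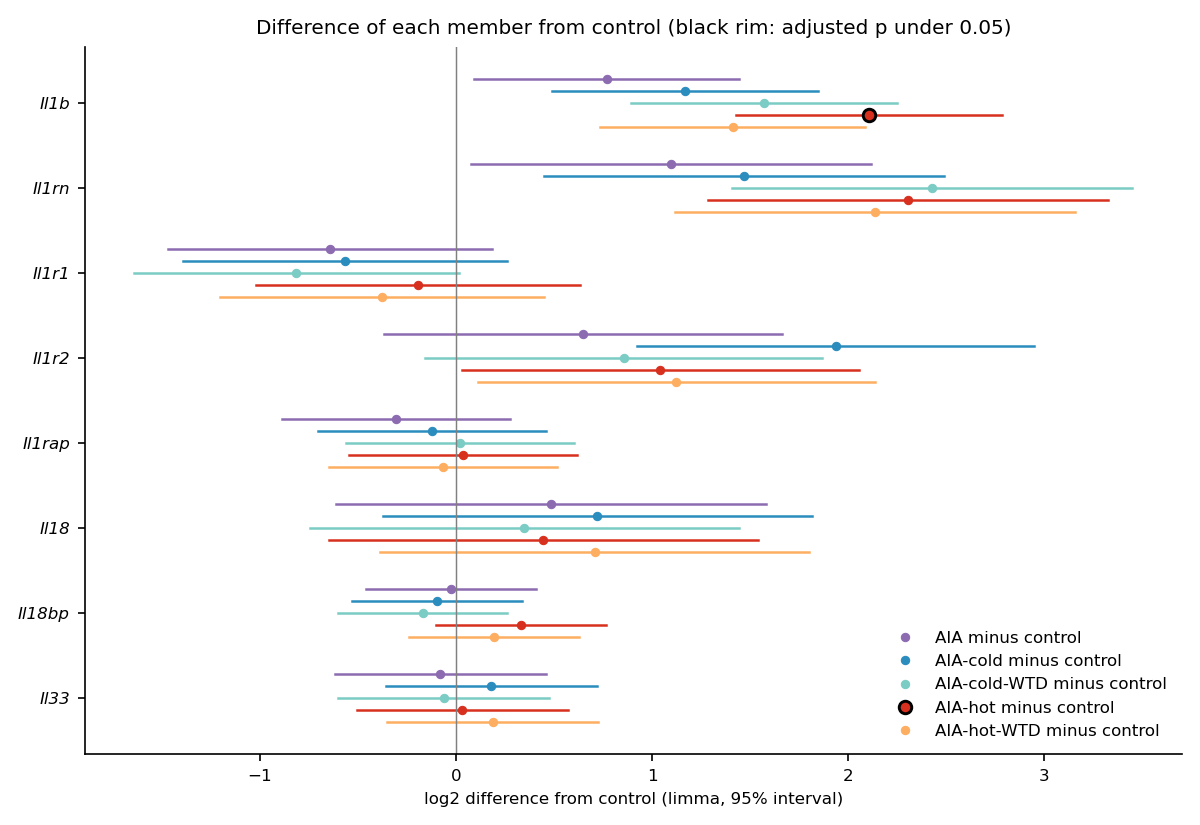
Log2 difference from control (x axis) with its 95% interval from limma for the 8 tested genes (y axis) in the 5 other groups, coloured by group. Il1b and Il1rn lie above 0 in all 5 groups, Il1b in AIA-hot at 2.11 alone passed the test (black rim), and the intervals of Il1rap, Il18, Il18bp, Il33 and Il1r1 all include 0.

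The WTD groups gave similar counts against control. In AIA-cold-WTD 0 of 8 members were called by limma (2 at an unadjusted p under 0.05) beside 0.0297% of all genes. In AIA-hot-WTD 0 of 8 were called (3 at an unadjusted p under 0.05) beside 0.0805% of all genes. Il1b and Il1rn did not overlap control in either group, against 16.3% and 18.03% of all genes. These comparisons share the 3 control arrays with those above. Without AIA-cold-WTD replicate 1 the AIA-hot-WTD difference of Il1b, unchanged at 1.41, had an adjusted p of 0.0439.

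Between the models and plain AIA the calls were again few. AIA-cold minus AIA gave 0 of 8 calls by limma (1 at an unadjusted p under 0.05) beside 0% of all genes, and Il1b, Il1rn and Il1r2 did not overlap, against 24.2% of all genes. For AIA-hot minus AIA 0 of 8 were called (2 at an unadjusted p under 0.05) beside 0% of all genes, and Il1b and Il1rn did not overlap, against 9.91%. AIA-cold minus AIA-hot gave 0 of 8 (1 at an unadjusted p under 0.05) beside 0.00847% of all genes. There Il1b, Il1rn and Il18bp were lower in every AIA-cold array than in every AIA-hot array, against 15.1% of all genes with no overlap in either direction.

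With WTD no member passed the test. In the cold model 0 of 8 were called by limma (1 at an unadjusted p under 0.05) beside 0.00847% of all genes, and Il1rn alone did not overlap, against 14.4% of all genes. In the hot model 0 of 8 were called (1 at an unadjusted p under 0.05) beside 0% of all genes, and 0 did not overlap, against 7.09%. The difference of the WTD effects gave 0 of 8 (1 at an unadjusted p under 0.05) beside 0% of all genes. The F test over the 6 groups gave 0 of 8 (3 at an unadjusted p under 0.05) beside 0.0297% of all genes, and Il1b had the smallest adjusted p of the members, 0.122. Without AIA-cold-WTD replicate 1 that p was 0.0466.

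Across arrays the members did not vary as 1 block. Il1b and Il1rn had the closest relation of the 28 pairs, r = 0.77 over 18 arrays and 0.68 without control replicate 1. After the group means were taken out it was 0.18, so the relation lay mainly between groups. Il1r1 and Il18 stood at r = -0.66, which became -0.0012 without control replicate 1. These are descriptions of arrays that share groups and slides.

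The genes most like each member, by Pearson r over 18 arrays among 11969 genes with a symbol, differed between ligand and antagonist. For Il1b they were the chemokine Ccl4 (r = 0.918), Calhm6 (0.906), complement C3 (0.904), the T cell coreceptor chain Cd8b (0.896) and the protease inhibitor Slpi (0.884). Without control replicate 1 these r were between 0.842 and 0.890. For Il1rn they were Rac2 (0.958), a GTPase of blood cells, Emb (0.952), the leukocyte surface protein Spn (0.946), the leukocyte actin regulator Coro1a (0.934) and Nup210 (0.905).

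The receptors and remaining ligands had other neighbours. Il1r2 was nearest to Polr1e (0.847), Map3k6 (0.834) and Cfp (0.828), the complement factor properdin, followed by Wdr5 and Tf, both at 0.818. Il1r1 was nearest to Susd5 (0.944), Ier3 (0.934), Gp1ba (0.929), Myh9 (0.923) and Itga5 (0.922), but without control replicate 1 the last 3 ranked 13, 48 and 20. Il1rap was nearest to Commd5 (0.887), Psme2 (0.837), Zbtb8os (0.805), Mtf1 (0.802) and Akp3 (0.799). Il18 was nearest to Lpxn (0.949), the macrophage marker Aif1 (0.947), Kcnk13 (0.947), the phagocyte oxidase subunit Cybb (0.938) and the complement receptor C5ar1 (0.937), and without control replicate 1 these r were between 0.739 and 0.808. Il33 was nearest to Plat (0.805), a plasminogen activator of endothelium, Rapgef3 (0.805), Gpr4 (0.803), the endothelial and blood cell factor Fli1 (0.802) and Atp8b1 (0.797). Il18bp was nearest to genes known to respond to interferon: the class I gene RT1-T24-1 (0.907), the immunoproteasome subunit Psmb8 (0.875), Lgals9 (0.861), Ifi27 (0.858) and Oas1i (0.855).

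Markers of other cells moved with some members. Bulk tissue cannot tell more cells of a type from more RNA per cell. The mean of 12 T and NK cell genes, 2 of them well above background on all 18 arrays, ran from -3.38 to -2.64 in control, from -2.78 to -2.61 in AIA, from -2.45 to -2.23 in AIA-cold and from -2.12 to -1.49 in AIA-hot. In AIA-cold-WTD it ran from -2.60 to -1.54 and in AIA-hot-WTD from -2.58 to -2.05. Its correlation with Il1b was 0.87 over 18 arrays and 0.94 without control replicate 1, the highest of the 14 marker lists. Cd8b belongs to this list, and the part of these cells in the Il1b result was not tested.

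Neutrophil genes, 8 of 12 measured and 5 on all 18 arrays, ran from -1.94 to -1.26 in control, from -0.45 to 0.39 in AIA-hot, from -1.14 to 3.41 in AIA-cold-WTD and from 0.45 to 3.20 in AIA-hot-WTD. In AIA they ran from -1.48 to 0.86 and in AIA-cold from -0.64 to 1.08. They correlated with Il1rn at 0.60, with Il1b at 0.20 and with Il1r2 at 0.52. Il1r2 had its highest correlation, 0.65, with 5 measured erythroid genes, which ran from -2.38 to 1.44 in control, from 0.65 to 3.09 in AIA-cold and from 2.63 to 3.81 in AIA-hot-WTD. These Il1r2 values were 0.48 and 0.63 with control replicate 1 left out. Il1rn correlated with mast cell genes at 0.70, and at 0.36 without that array, and with T and NK cell genes at 0.55 and 0.67. Monocyte and macrophage genes, 12 of 13 measured and 10 on all 18 arrays, correlated with Il18 at 0.93, and at 0.76 without control replicate 1. They did not track Il1b (0.32, and -0.21 without that array). Their range was 1.87 to 3.75 in control, 3.13 to 3.36 in AIA, 3.26 to 3.72 in AIA-cold, 3.13 to 3.79 in AIA-hot, 3.08 to 3.29 in AIA-cold-WTD and 3.23 to 3.60 in AIA-hot-WTD. Endothelial genes, 9 of 10 measured, ran against Il1rn at -0.77, and at -0.39 without control replicate 1. They ran against Il18 at -0.84, and at -0.35 without that array. Il1r1 correlated with cartilage genes at 0.79, and at 0.50 without control replicate 1. With synovial fibroblast and lining genes it correlated at 0.28, and at 0.78 without that array. What part these cells have in the results for Il1rn, Il1r2, Il18 and Il1r1 was not tested.

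**Figure D4:**
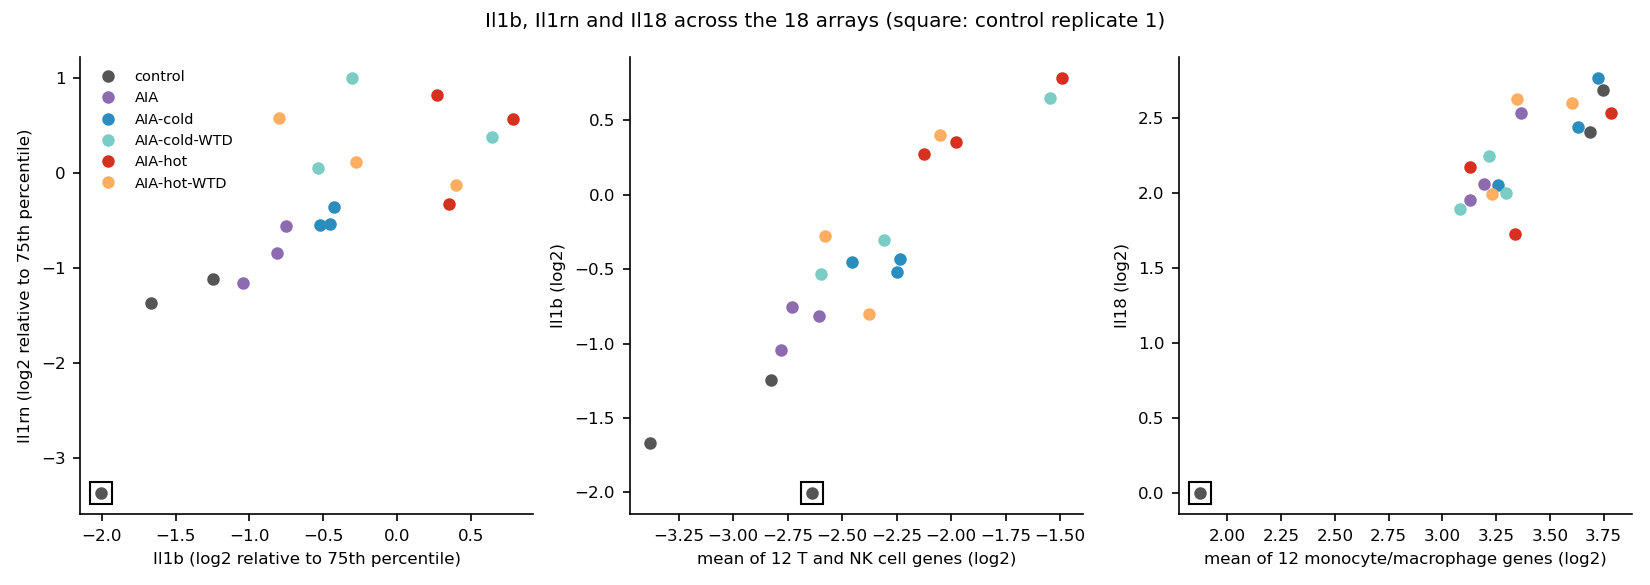
Il1rn against Il1b, Il1b against the mean of 12 T and NK cell genes, and Il18 against the mean of 12 monocyte and macrophage genes, all as log2 values, with 1 point per array coloured by group and a square around control replicate 1. Il1b follows the T and NK cell genes (r = 0.87), and control replicate 1 lies far from the other 17 arrays in the Il18 panel, at 0.00 and 1.87.

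Among other genes of the pathway, those that process and release interleukin-1 and interleukin-18 gave no call. Of 18 such genes 16 were measured. In AIA-hot minus control 11 were higher and 5 lower, with a median of 0.20 (0.08 without control replicate 1) and 0 calls by limma (2 at an unadjusted p under 0.05). Mefv, which encodes the inflammasome sensor pyrin, differed by 1.29 ± 0.38 in AIA-hot and by 0.96 ± 0.38 in AIA-cold, with adjusted p of 0.198 and 0.191, and by 0.95 and 0.62 without control replicate 1. Nlrp1a, another sensor, had a mean of -3.37 in AIA-cold, measured on all 3 arrays, while 0 control arrays had it above background (adjusted p = 0.184). It passed the filter only through AIA-cold and AIA-cold-WTD. The lowest probe well above background lay between -4.51 and -4.24 on the AIA-cold arrays and between -3.90 and -1.86 on the control arrays. Counts of arrays above background are therefore not comparable between these groups. The neutrophil protease gene Ctsg had means of 0.11 ± 3.11 (SD) in AIA-cold-WTD and 0.12 ± 2.81 in AIA-hot-WTD. Its arrays there ran from -3.44 to 2.36 and from -2.53 to 3.07. Ctsg passed the filter only through these groups and was not well above background in control (adjusted p = 0.246 and 0.259). Its highest AIA-cold array read 1.09. Prtn3, another such protease, differed from control by 2.36 ± 0.73 in AIA-cold-WTD and 2.11 ± 0.73 in AIA-hot-WTD (adjusted p = 0.184 and 0.228).

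Of 27 genes that signal from the receptors, 24 were measured and 1 was called. That gene was Irak2, a kinase downstream of Il1r1, called lower than control in 4 groups. In these, 0.534% (AIA-cold), 0.0551% (AIA-hot), 0.0297% (AIA-cold-WTD) and 0.0805% (AIA-hot-WTD) of all genes were called. In AIA it was also lower but not called (adjusted p = 0.137 by limma). With each AIA array set at the dimmest signal well above background on that array, the difference was 2.97-fold (1.81-fold without control replicate 1). Irak2 read -0.46, -2.14 and -3.08 on the control arrays and between -6.39 and -4.31 on the others. Among the others it was measured above background on 1 array only, in AIA-cold. Irak2 thus passed the filter only through control, the group where it is high. Its p-values set measured control values against readings mostly not well above background, so they do not by themselves establish a fall. With arrays set in the same way, Irak2 was 3.66-fold lower in AIA-hot, 5.12-fold in AIA-hot-WTD and 8.62-fold in AIA-cold-WTD. Without control replicate 1 these were 2.23-, 3.11- and 5.24-fold. A probe that is not well above background can read above that dimmest signal, so these folds are not lower limits. By limma on the readings themselves, the adjusted p was 0.0216, 0.0208 and 0.0402 in that order. In AIA-cold 1 of 3 arrays measured Irak2, so the size there is uncertain. The fitted difference in AIA-cold was -2.81 ± 0.54 (adjusted p = 0.0392), and -2.09 without control replicate 1 (adjusted p = 0.0721). With slide as a random block the adjusted p of these 4 comparisons was between 0.118 and 0.231. Of 18 fits with an array left out, the call was kept in 13 for AIA-hot, 16 for AIA-hot-WTD, 8 for AIA-cold-WTD and 7 for AIA-cold. The highest adjusted p among them were 0.134 (without AIA-hot replicate 2), 0.127 (without AIA-hot-WTD replicate 1), 0.220 (without AIA-cold-WTD replicate 3) and 0.154 (without AIA-cold replicate 1). The inhibitor gene Nfkbia differed from control by -0.42 ± 0.19 in AIA-hot and -0.60 ± 0.19 in AIA-cold-WTD, and Jun by -0.57 ± 0.18 in AIA-cold, none called (adjusted p = 0.398, 0.184 and 0.118). With control replicate 1 left out these were -0.32, -0.51 and -0.45. Chuk, a kinase of the NF-kappaB pathway, differed by -0.28 to -0.31 in all 5 groups, none called.

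Genes that interleukin-1 is known to induce in synovial fibroblasts numbered 24, of which 16 were measured. In AIA-hot minus control 12 were higher and 4 lower, with a median of 0.44 beside -0.05 over all genes (0.29 without control replicate 1), and 0 were called by limma (6 at an unadjusted p under 0.05). In AIA-cold minus control 7 were higher and 9 lower, with a median of -0.02, and 0 were called (6 at an unadjusted p under 0.05). C3 differed by 3.06 ± 0.63 in AIA-hot and 1.98 ± 0.63 in AIA-cold (adjusted p = 0.0894 and 0.123), and by 2.69 and 1.60 without control replicate 1. Il6, a cytokine, had a mean of -3.01 in control, measured above background on 1 array, and was above background on 0 AIA-cold arrays (adjusted p = 0.0930). It passed the filter only through AIA-cold-WTD, so this comparison rests mostly on readings not well above background. The control arrays ran from -3.65 to -1.75, and without control replicate 1 the fitted Il6 difference was -1.06 (adjusted p = 0.213). Adamts4, an aggrecan-cleaving protease, differed by 1.09 ± 0.32 in AIA-cold (adjusted p = 0.108), and by 0.72 without control replicate 1. Lcn2, an iron-binding defence protein, differed by 2.02 ± 0.57 in AIA-cold-WTD (adjusted p = 0.159), and by 2.65 without that array. It also belongs to the neutrophil genes above, and the part of these cells in its difference was not tested. For Ptgs2 and Nos2, 0 of the 18 arrays gave a signal well above background.

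Of 12 further family members 10 were on the array and 2 were measured, with 0 calls in the 12 comparisons by limma. In AIA-cold minus AIA 1 of them, the interleukin-33 receptor Il1rl1, had an unadjusted p under 0.05 (adjusted p = 0.473). Il1rl1 was tested on a probe that passed the filter only through AIA-cold and AIA-cold-WTD. Its mean was -3.52 in AIA-cold, measured on 3 arrays, while 0 AIA arrays had it above background. The groups overlapped, from -3.82 to -3.35 in AIA-cold and from -5.68 to -3.61 in AIA. The lowest probe well above background lay between -3.59 and -3.40 on the AIA arrays and between -4.51 and -4.24 on the AIA-cold arrays. Counts of arrays above background are therefore not comparable between these groups. Sigirr, an inhibitory receptor, was well above background on all 18 arrays and differed from control by -0.42 ± 0.28 in AIA and AIA-cold, and by 0.02 in both without control replicate 1.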

How the data were processed

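Agilent Feature Extraction 10.7, named in the submitters' processing notes, produced the deposited scanner files, which hold 1 fluorescence intensity per spot. Background was subtracted, trends over the slide removed, the dimmest signals replaced by a surrogate and arrays were not normalized to each other, per the file headers. Positions are rn4. Flags for outliers and for signal well above background are other columns, per the file headers. A second table of values, deposited by the authors, was taken as log2 since it correlated with log2 of the same arrays' signal at 0.989 to 1.000; its column medians lay between 5.40 and 5.43, and how its arrays were brought together is not given in the sources used here. It served as an alternative.

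From the scanner files, log2 of the processed signal was taken, outlier-flagged spots were dropped, spots of a probe were averaged (67 probe values were missing) and the 75th percentile over gene probes was subtracted. A probe was kept if, in 1 group or more, each of the 3 arrays had it well above background; 28271 passed, and the brightest stood for its gene. Names came from the files and RefSeq (18028 probes by accession, 3169 by symbol, 402 by synonym). All 18 arrays entered 1 limma fit (limma 3.58.1, R 4.3.3, 12 residual and 2.29 prior degrees of freedom), and a call needed an adjusted p (Benjamini-Hochberg) under 0.05 in each of 11 contrasts and an F test. The fit was tested on simulated data. Named genes are all members, listed genes called in a contrast, up to 4 per list with the smallest F-test p, and the 5 genes most like a member. Alternatives were normexp (offset 50), quantile and median scaling, other dim-probe filters, all kept probes, slide blocks, fewer groups, array weights and each array left out. Members and lists were chosen with earlier results of these data known. No animal numbers are given, so p-values measure the spread between arrays, which may be partly technical. The number of arrays limits the precision.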

Additional observations from a re-analysis of the deposited data

How the results depend on the processing

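The count of called members in AIA-hot minus control, 1 as reported, was 0 with normexp, with no filter on dim probes, with a random or a fixed slide block and with only the groups compared in the fit. It was also 0 with only probes well above background on all arrays, which leaves Il1b out. Quantile and median scaling, the series table and the mean of probes kept it. Array weights, which gave control replicate 1 a weight of 0.0874, called far more genes (11369 in the F test against 7). With them the counts were 2 for AIA-hot, 3 for AIA-cold, 4 for AIA-cold-WTD and 2 for AIA-hot-WTD minus control, 2 for AIA-hot minus AIA, 4 for AIA-cold minus AIA-hot, 1 for AIA-cold-WTD minus AIA-cold and 4 in the F test. With no filter, 2 members (Il1b and Il1rn) were called in AIA-cold-WTD minus control. With 1 array left out the counts ran from 0 to 2 in AIA-hot minus control and from 0 to 1 in AIA-cold, AIA-cold-WTD and AIA-hot-WTD minus control and in the F test.

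Of 2531 comparisons of the 88 member differences with an alternative, 2490 kept their side of the threshold, 16 lost a call, 25 gained one, and none that was called turned sign. Of 117 sign changes, 13 concerned differences beyond 1 SE; the cause was not tested. Counts over all genes moved more: 126 calls in AIA-cold minus control became 203 with normexp, 222 with quantile scaling, 206 with no filter and 0 with the random block, and 13 in AIA-hot minus control became 0, 22, 3 and 0. Against control the median of all genes reached 0.19 with median scaling and -0.21 with normexp, against -0.04 as reported for AIA-cold. The settings for the dimmer Il33 probe and for listed genes were chosen after seeing the data. No paired analysis was possible because the labels number no pairs. Signal over background limits Il1a, which has no level, and control replicate 1, where Il1b, Il1rn, Il1r2 and Il1rap were not well above background.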
